A study of Mus musculus with 3 samples.

Results

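The 95 nuclear genes of the mitochondrial respiratory chain and ATP synthase described here were taken from the 28692 features by the start of the symbol: Ndufa, Ndufb, Ndufc, Ndufs and Ndufv for complex I, Sdh for complex II, Uqcr for complex III, Cox4i, Cox5, Cox6, Cox7 and Cox8 for complex IV, and Atp5 for complex V. Cox6a2 and pseudogenes ending in -ps were left out by the same rule. The rule found 82 subunits (38 of complex I, 4 of complex II, 8 of complex III, 17 of complex IV and 15 of complex V) and 13 genes that share the prefixes without encoding a subunit, which are the assembly factors Ndufaf1 to Ndufaf7 and Sdhaf1 to Sdhaf4 and the factors Atp5s and Atp5sl. The name subunit therefore does not cover every gene, and the 13 were counted apart. Complexes were assigned by prefix as well, which places Ndufa4 and Ndufa4l2 with complex I and Cox7a2l with complex IV. The genes lie on 19 chromosomes and held 909652 unique molecular identifiers (UMIs, counted transcript molecules). They were set beside the 13 mt- genes, the subunits that the mitochondrial genome itself encodes.

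The libraries came from mammary tumours grown from 2208L cells, a mouse mammary tumour line, injected into the mammary gland of mice and taken after 4 weeks at a diameter of 0.7 to 1 cm. Viable cells that stained for CD45, a surface protein of leukocytes, and excluded DAPI were sorted and made into 3 droplet libraries. All 3 libraries carry the same labels, so the study gives no treated and control groups, and the comparisons below are between cell classes within the libraries. The labels state neither strain, age nor whether the tumours came from separate animals, so p-values measure only the spread between these libraries, they call the cell type tumour although CD45 was sorted, and a 5′ kit in the text of the labels stands beside 3′ sequencing.

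Complexes I and II pass electrons from NADH and succinate to coenzyme Q, complex III passes them on to cytochrome c, complex IV hands them to oxygen, and complex V uses the proton gradient built by complexes I, III and IV to make ATP. Complexes I, III, IV and V are assembled from subunits of both genomes, and complex II from nuclear genes alone. Mature neutrophils are known for few mitochondria and for drawing their ATP mostly from glycolysis, while macrophages, T cells and carcinoma cells rely on oxidative phosphorylation to a larger extent. The nuclear respiration factors NRF1 and NRF2 (a GABP complex that binds ETS sites) are known activators of many of the nuclear genes.

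The 250 bases before the start of 4 genes named in the results below are shown. No link between these sequences and the levels was tested. Atp5g1, Atp5g2 and Atp5g3 encode the same mature c subunit of the ATP synthase rotor ring with different targeting peptides, so that they differ in what controls them rather than in the protein they give. Ndufa5, an accessory subunit of complex I, stood apart in the epithelial-like class. The sequences are from RefSeq on the mouse build GRCm38.p6, all on the minus strand and written 5′ to 3′ on that strand. Ndufa5 had 2 such windows, and the one farther upstream is shown. That window precedes a RefSeq start but lies within the gene as GENCODE M21 places it (24518666 to 24528013). Capitals mark a match to the NRF1 word GCGCANGCG or to the word TNAAGGTCA of the oestrogen-related receptors (ERR), searched on both strands. Atp5g1 at chr11:96075632-96075881 held no match to the 4 words searched, Atp5g2 at chr15:102671048-102671297 held an NRF1 word on both strands that overlaps itself, Atp5g3 at chr2:73911327-73911576 an ERR word on the opposite strand, and Ndufa5 at chr6:24527691-24527940 an NRF1 word.
Atp5g1: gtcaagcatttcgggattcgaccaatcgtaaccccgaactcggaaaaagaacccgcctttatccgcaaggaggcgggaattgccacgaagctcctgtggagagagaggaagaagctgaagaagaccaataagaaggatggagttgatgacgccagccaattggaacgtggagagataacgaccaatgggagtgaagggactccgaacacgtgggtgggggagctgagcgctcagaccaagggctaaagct
Atp5g2: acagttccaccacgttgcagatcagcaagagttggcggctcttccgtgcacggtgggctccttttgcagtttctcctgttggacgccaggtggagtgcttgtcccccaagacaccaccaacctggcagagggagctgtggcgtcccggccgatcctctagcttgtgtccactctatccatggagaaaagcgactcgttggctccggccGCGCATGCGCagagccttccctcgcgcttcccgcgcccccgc
Atp5g3: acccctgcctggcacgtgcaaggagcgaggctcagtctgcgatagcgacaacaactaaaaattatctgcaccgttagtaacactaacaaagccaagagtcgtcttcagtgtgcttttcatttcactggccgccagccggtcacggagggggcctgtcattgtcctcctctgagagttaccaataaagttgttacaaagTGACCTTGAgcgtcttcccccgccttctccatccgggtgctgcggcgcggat
Ndufa5: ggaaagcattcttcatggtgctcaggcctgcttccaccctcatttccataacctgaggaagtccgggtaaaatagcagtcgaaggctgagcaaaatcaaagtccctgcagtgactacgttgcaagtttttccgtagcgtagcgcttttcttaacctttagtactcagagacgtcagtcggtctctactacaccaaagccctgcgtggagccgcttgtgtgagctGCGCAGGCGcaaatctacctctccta
Of the 95 genes, 80 matched a RefSeq gene with such a window. A gene counted when any of its windows held the word, and all 27025 genes had 32851 windows. The NRF1 word stood before 16 of the 80 genes (20%), against 5.86% of all 27025 genes. The ETS word CCGGAAG of NRF2 stood in 15 (18.8%), against 7.83% of all, and the ERR word in 2 (2.5%), against 1.30%. The word AAGATGGCG of YY1, also searched, stood in 2 (2.5%), against 0.710%. These are matches of letters and were not tested as binding sites.

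The libraries held 9846404, 15259236 and 9445914 UMIs in 4424, 6036 and 3876 barcodes, of which 14224 of 14336 were kept; 29, 25 and 37 barcodes were shared between pairs of libraries. Clusters were named from marker genes, which gave 7 classes with enough barcodes to test. Neutrophil-like barcodes made up 39.1%, 35.9% and 60.2% of the kept barcodes in replicates 1 to 3, so replicate 3 stood apart, and their median depth of 809.5, 819 and 1056 UMIs lay far below the 4019, 4047 and 5730 UMIs of the monocyte/macrophage-like class. The plasmacytoid-dendritic-cell-like class held 24, 160 and 25 barcodes, the fewest of the classes tested. Epithelial-like barcodes (90, 95 and 87) met the epithelial markers, 9 of 10 of which were detected with Krt5 at 0, but had 12.8, 27.9 and 7.80 CPM of Ptprc, the gene of CD45, against 323, 415 and 379 in the neutrophil-like class. Values below are CPM, the UMIs of a gene divided by all UMIs of the same library and class and scaled to a sum of 1000000, and fewer transcripts per cell cannot be told from a larger amount of other transcripts on that scale. The doublet caller marked 2 barcodes (0.0140%) and has therefore not worked, so doublets may remain in every class.

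Among the 7 classes tested, nuclear respiratory chain transcripts took the smallest share of UMIs in neutrophil-like barcodes and the largest in epithelial-like barcodes. The 95 genes summed to 20274, 19084 and 19868 CPM in the neutrophil-like class of replicates 1, 2 and 3, against 27552, 26937 and 27040 CPM in the monocyte/macrophage-like class. Dendritic, plasmacytoid, T and NK classes lay between 24721 and 27606 CPM, and the epithelial-like class at 38008, 39487 and 37474 CPM. The neutrophil-like sums were below those of every other tested class in all 3 libraries, and the other leukocyte classes overlapped each other except that every T-cell-like sum (25797 to 26876 CPM) was below every monocyte/macrophage-like sum. The neutrophil-like sum was 0.726 ± 0.016 of the monocyte/macrophage-like sum (SD of 3 libraries), 0.750 ± 0.041 of the dendritic, 0.755 ± 0.017 of the plasmacytoid, 0.747 ± 0.032 of the T-cell, 0.741 ± 0.039 of the NK-cell and 0.516 ± 0.028 of the epithelial-like sum.

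The mitochondrially encoded partners were lower still. The 13 mt- genes summed to 8639, 8301 and 8457 CPM in the neutrophil-like class, against 27608, 25297 and 27844 CPM in the monocyte/macrophage-like class. In each library the neutrophil-like level was less than that of any other tested class, with T-cell-like sums of 21708, 21006 and 22283 CPM the nearest. The neutrophil-like mt- sum was 0.315 ± 0.012 of the monocyte/macrophage-like one, so the nuclear and mitochondrial parts of the same complexes differed by unequal amounts. Nuclear UMIs stood to mt- UMIs as 2.33 ± 0.028 to 1 in the neutrophil-like class, against 1.01 ± 0.048 in the monocyte/macrophage-like, 1.22 in the T-cell-like, 0.748 in the plasmacytoid and 1.24 ± 0.16 in the epithelial-like class. Barcodes with over 10% of UMIs from mt- genes had been left out of these sums; without that filter the mt- ratio was 0.412.

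**Figure D1:**
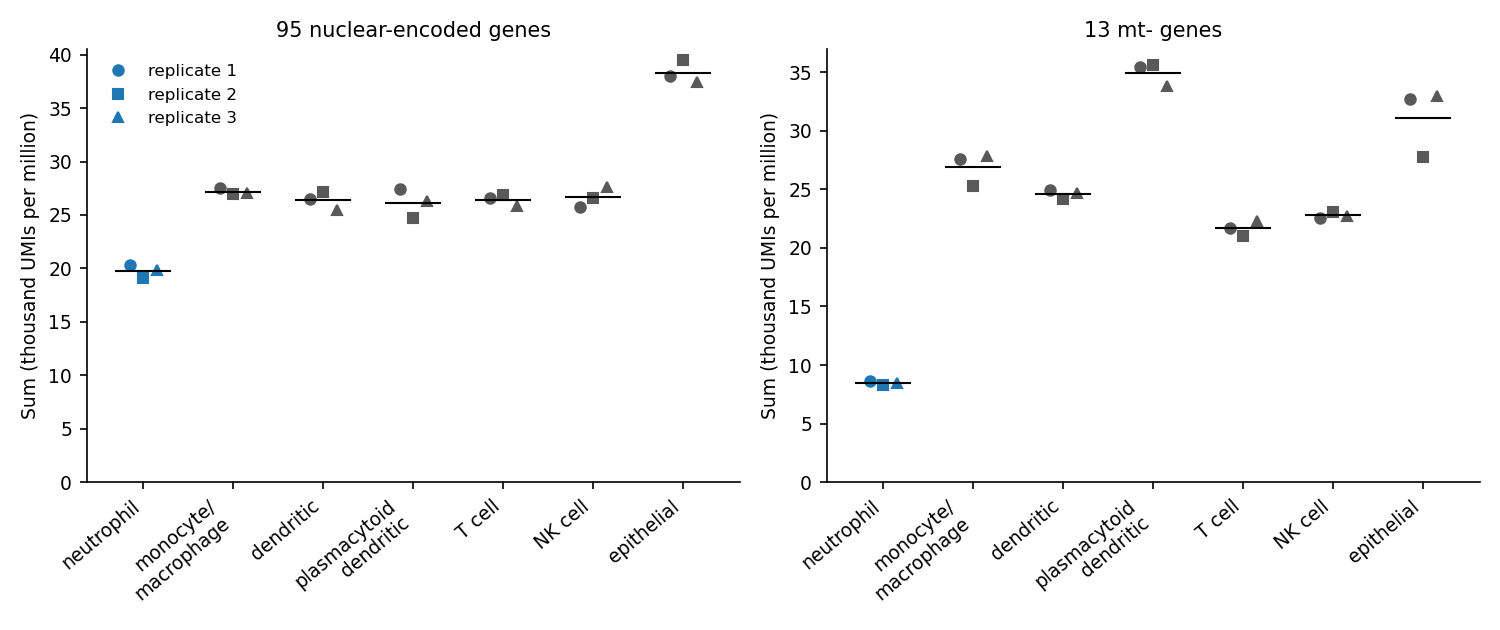
Summed CPM of the 95 nuclear genes (left) and of the 13 mt- genes (right) by cell class; points are the 3 libraries and lines their means. The neutrophil-like points are the lowest in both panels and the epithelial-like points the highest for the nuclear genes, while plasmacytoid points reach the highest mt- level.

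The same order held in single barcodes. A neutrophil-like barcode held on average 18.4, 18.5 and 23.3 UMIs of the 95 genes, against 123, 123 and 173 in the monocyte/macrophage-like class. When every barcode was thinned to 600 UMIs, the means were 12.8, 12 and 12.7 UMIs in neutrophil-like and 16.5, 16.2 and 16.1 UMIs in monocyte/macrophage-like barcodes. Of the mt- genes, 4.91, 4.56 and 4.74 UMIs per 600 remained in neutrophil-like barcodes, against 16.0, 15.2 and 16.3. No library of either class overlapped the other at equal depth.

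Gene by gene, the neutrophil-like class was set against each other class in a joint edgeR quasi-likelihood fit over 9529 genes, with library as a block and Benjamini-Hochberg adjustment over all genes at 0.05. Of the 95 genes, 88 could be tested. Cox7b2, Cox8b and Cox8c had 0 UMIs in every class, which in the neutrophil-like class allows up to 0.472 CPM, and Cox4i2, Ndufaf6, Ndufa4l2 and Atp5s did not pass the filter on low counts. Against the monocyte/macrophage-like class, 51 of the 88 were lower (58.0%), against 36.4% of all genes tested, and 12 were higher (13.6%), against 29.8%. The median log2 fold change of the 88 was -0.47, against -0.14 over all genes, and all 13 mt- genes were lower with a median of -1.30. Among subunits 47 of 77 were lower and 8 higher, and among the assembly factors 4 of 11 were lower and 4 higher.

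Complex V was one-sided. Of its 15 subunits 10 were lower in the neutrophil-like class at a median log2 fold change of -0.49, and the other 5 were not called. The 3 c-ring genes were among the 10 lowest members of the whole contrast. Atp5g1 had 222, 195 and 210 CPM in the neutrophil-like class, against 545, 461 and 510 CPM in the monocyte/macrophage-like class. Atp5g2 had 205, 164 and 189 CPM in neutrophil-like and 546, 533 and 507 CPM in monocyte/macrophage-like barcodes, and Atp5g3 had 68.7, 55.6 and 72.6 CPM against 239, 224 and 248 CPM. All 3 neutrophil-like libraries lay well below all 3 others for each gene. The log2 fold changes were -1.07 (SE 0.110), -1.30 (SE 0.116) and -1.65 (SE 0.130), with adjusted p = 5.6e-10, 2.2e-11 and 1.2e-12. Pseudogenes of this family exist, and how shared reads were counted is not stated in the labels.

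The F1 head, the catalytic part that makes ATP, moved less. Atp5b, the catalytic beta subunit, had 278, 258 and 325 CPM in neutrophil-like and 406, 378 and 449 CPM in monocyte/macrophage-like barcodes (log2 fold change -0.31, adjusted p = 0.021). Atp5a1, the alpha subunit, had 114, 120 and 143 CPM against 232, 252 and 269 CPM, and Atp5c1, the gamma subunit of the central stalk, 157, 123 and 163 CPM against 306, 316 and 300 CPM. Both were lower by more than the spread of the libraries, at log2 -0.80 and -0.85. Atp5d, the delta subunit, was lower at -0.76, with 199, 186 and 200 CPM against 386, 372 and 385 CPM. Atp5e, the epsilon subunit, was not called, with 897, 877 and 860 CPM against 1174, 1188 and 1082 CPM and a log2 fold change of -0.18, close to the -0.14 of all genes.

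Complex I was mixed, with 19 of 37 subunits lower, 4 higher and a median log2 of -0.28. Ndufc2, an accessory subunit of the membrane arm, had 56.5, 36.9 and 50.5 CPM in neutrophil-like and 213, 241 and 251 CPM in monocyte/macrophage-like barcodes, and gave the lowest of the fold changes named here (log2 -2.10, SE 0.153, adjusted p = 2.0e-13). Ndufc1, also an accessory subunit of the membrane arm, had 135, 107 and 137 CPM against 305, 281 and 295 CPM (log2 -1.01). Both genes were low in every neutrophil-like library. The accessory subunits Ndufa9 (19.3, 13.4 and 18 CPM against 45.3, 54.1 and 60.6 CPM, log2 -1.46) and Ndufa10 (46.2, 39.3 and 40.5 CPM against 109, 105 and 110 CPM, log2 -1.17) were lower as well. Ndufa4, a complex IV subunit counted here with complex I by prefix, had 141, 144 and 158 CPM against 373, 365 and 421 CPM (log2 -1.18). None of these 5 genes overlapped between the classes.

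The catalytic core of complex I did not move as a unit. Ndufs3, Ndufs8 and Ndufv2 were lower in the neutrophil-like class than in the monocyte/macrophage-like class, at log2 -0.67, -0.41 and -0.65; Ndufs8 and Ndufv2 carry iron-sulphur clusters. Ndufs3 had 66.2, 39.8 and 64.1 CPM in neutrophil-like and 112, 94.98 and 102 CPM in monocyte/macrophage-like barcodes, Ndufs8 98.3, 83.9 and 111 CPM against 150, 142 and 156 CPM, and Ndufv2 84.8, 62.8 and 84.4 CPM against 141, 136 and 141 CPM. Each of the 3 was lower in every library. Ndufs7, the iron-sulphur subunit next to the coenzyme Q site, was higher with 231, 183 and 199 CPM against 170, 164 and 159 CPM (log2 0.52, adjusted p = 3.0e-04). Ndufs1 (10.9, 6.23 and 11.1 CPM against 9.63, 14.6 and 13 CPM) and Ndufv1, which binds FMN and takes the electrons of NADH (31.5, 20.1 and 33.5 CPM against 35.8, 36.0 and 44.6 CPM), were not called. The libraries of the 2 classes overlapped for Ndufs1 and not for the other members of this paragraph with printed values. Accessory subunits on the higher side were Ndufa7 with 563, 497 and 492 CPM against 404, 374 and 378 CPM (log2 0.63), Ndufb9 (log2 0.52) and Ndufb6 (log2 0.37).

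Assembly factors stood at both ends. Ndufaf3, which helps build the coenzyme Q module of complex I, had 63.6, 60.9 and 68.5 CPM in neutrophil-like and 34.3, 31.9 and 43.4 CPM in monocyte/macrophage-like barcodes (log2 1.03, SE 0.141, adjusted p = 1.4e-07), the highest fold change named here. Its known partner Ndufaf4 was lower at log2 -1.91, at a mean level too low for the rule by which genes are named. Sdhaf2, which attaches FAD to Sdha, had 43.0, 35.5 and 50.8 CPM against 25.8, 23.7 and 26.9 CPM (log2 0.94), while Sdhaf4, another complex II assembly factor, had 20.6, 19.6 and 21 CPM against 58.0, 52.5 and 58.2 CPM (log2 -1.26). In each of these cases the libraries of the classes did not overlap.

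All 4 subunits of complex II, the complex with no mitochondrial gene, were lower, at a median log2 of -0.51. Sdha, the flavoprotein that oxidises succinate, had 41.1, 34.5 and 45.7 CPM in neutrophil-like and 57.1, 54.9 and 62.0 CPM in monocyte/macrophage-like barcodes (log2 -0.32, adjusted p = 0.037). Sdhb, the iron-sulphur subunit, had 138, 138 and 147 CPM against 227, 209 and 234 CPM (log2 -0.46). The membrane anchors Sdhc and Sdhd were lower at log2 -0.999 and -0.56, with 27.0, 28.3 and 30.6 CPM against 62.9, 57.4 and 79.5 CPM for Sdhc and 59.1, 48.9 and 68.5 CPM against 90.5, 95.7 and 113 CPM for Sdhd. Every neutrophil-like library was below every monocyte/macrophage-like library for all 4. In complex III 7 of 8 subunits were lower. Uqcrfs1, the Rieske iron-sulphur protein, had 56.5, 71.4 and 68.9 CPM against 140, 149 and 132 CPM (log2 -0.88), Uqcrc1 87.4, 80.5 and 88.8 CPM against 132, 135 and 155 CPM (log2 -0.51) and Uqcrc2 37.3, 35.9 and 42.0 CPM against 59.4, 62.5 and 68.0 CPM (log2 -0.52). The 2 core proteins thus differed by less than the Rieske protein, and Uqcrq, a small subunit, was not called (log2 0.10).

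Complex IV split into lower and higher subunits, 7 and 4 of 13. Cox7c, a small subunit present in all tissues, had 282, 224 and 228 CPM in neutrophil-like and 846, 849 and 815 CPM in monocyte/macrophage-like barcodes (log2 -1.57, SE 0.118, adjusted p = 3.6e-13). Cox4i1, the regulatory subunit that binds ATP, had 725, 716 and 705 CPM against 1356, 1381 and 1254 CPM (log2 -0.69). Neither gene overlapped between the classes. On the higher side were Cox7a2 with 723, 659 and 702 CPM against 540, 500 and 514 CPM (log2 0.63), Cox8a with 1511, 1390 and 1426 CPM against 1287, 1296 and 1190 CPM (log2 0.41), Cox6a1 (711, 718 and 770 CPM against 672, 617 and 637 CPM, log2 0.40) and Cox6b1 (875, 920 and 883 CPM against 859, 801 and 828 CPM, log2 0.31). All 4 are the isoforms that most tissues use, and their libraries did not overlap. When scaled to library totals in place of TMM, the calls of Cox6b1, Cox6a1 and Ndufb6 were lost (adjusted p = 0.27, 0.080 and 0.24).

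The core and isoform genes were also set beside the 12 sums of the T-cell, NK-cell, dendritic and plasmacytoid classes in the 3 libraries, as levels with no test. For Ndufs3, Uqcrc2, Uqcrfs1, Atp5a1, Atp5c1, Atp5d, the 3 c-ring genes, Cox4i1, Cox7a2l and Ndufa4 all 12 sums lay above every neutrophil-like library, and for Ndufv1, Ndufv2, Sdhc, Atp5b, Atp5e and Cox7b 11 did. Ndufs3 had 67.9 to 182 CPM over the 12, Uqcrfs1 137 to 215 CPM, Atp5a1 178 to 380.1 CPM, Atp5b 325 to 516 CPM and Atp5e 896 to 1296 CPM. The complex IV gene Cox4i1 had 1030.05 to 1394 CPM, Ndufa4 266 to 726 CPM and Cox7a2l 379.9 to 687 CPM. Fewer sums lay above for Uqcrc1 (9), Ndufs8, Sdha and Sdhb (8 each) and Ndufs1 (7). Atp5g1 ranged between 332 and 479.7 CPM over the 12, Atp5g2 between 492 and 752 CPM and Atp5g3 between 163 and 297 CPM. In the epithelial-like class Atp5g1 had 647 to 706 CPM and Atp5g3 357 to 425 CPM, above all leukocyte sums, while Atp5g2 at 474 to 524 CPM was not. For Cox6a1 and Cox6b1 all 12 sums lay below every neutrophil-like library, at 446 to 625 CPM and 543 to 782 CPM. Ndufs7 lay below in 10, Cox8a in 9 and Cox7a2 in 9 of the 12, and Cox7a2 lay above in 2. Cox7b, a small subunit of complex IV, had 318, 303 and 327 CPM in neutrophil-like barcodes, against 426, 427 and 425 CPM in monocyte/macrophage-like barcodes, and was not called (log2 -0.22). Sdhd had 35.7 to 113 CPM over the 12 and overlapped the neutrophil-like libraries.

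**Figure D2:**
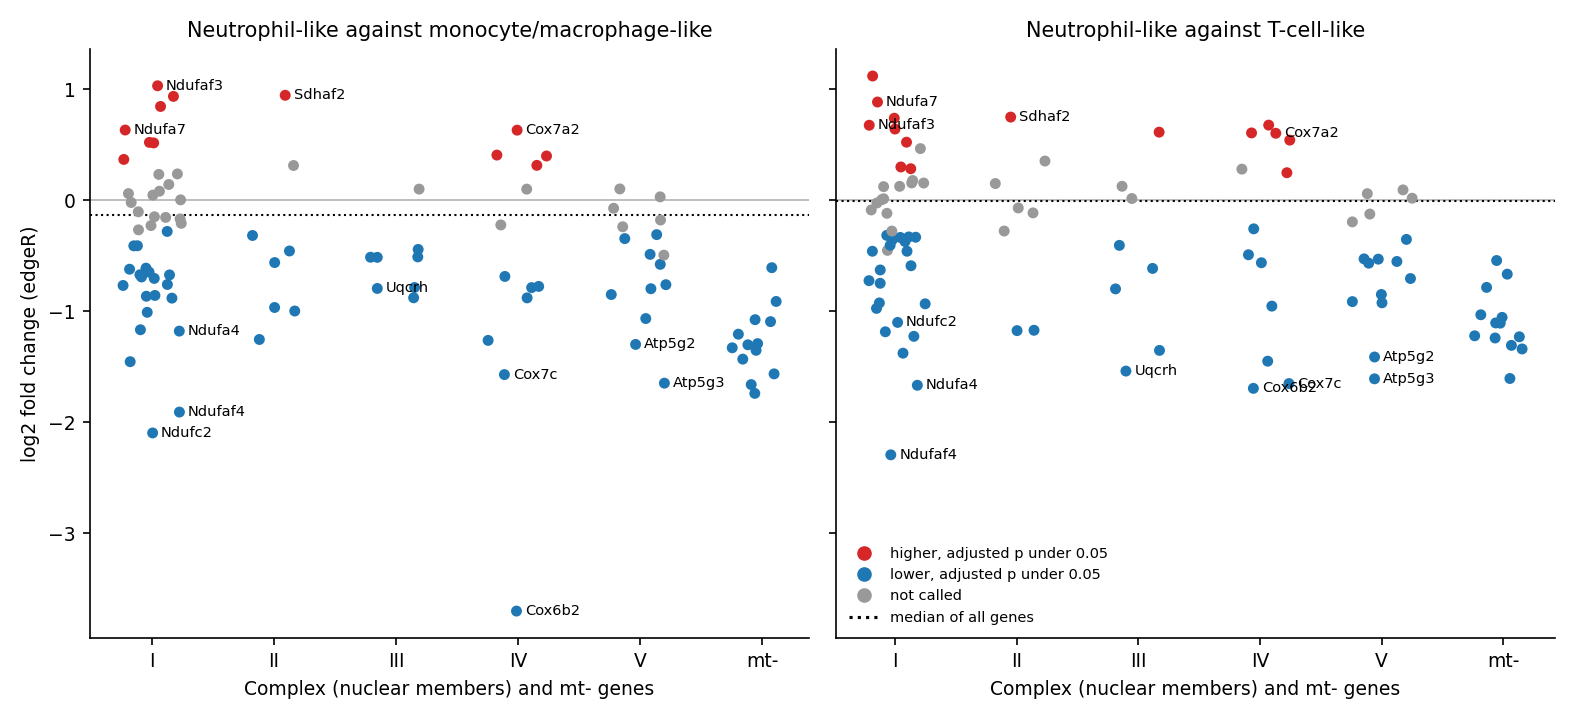
Log2 fold change of each tested member by complex, and of the mt- genes, in the neutrophil-like class against the monocyte/macrophage-like class and against the T-cell-like class; red points were called higher, blue lower and grey not called, and dotted lines mark the median of all genes. All 13 mt- genes are blue in both panels, complex V holds no red point, and complexes I and IV hold both colours.

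The other neutrophil contrasts share the same neutrophil-like sums, so they are given side by side and not as separate evidence. Against T-cell-like barcodes 47 of 88 were lower, against 32.5% of all genes, and 15 were higher, against 32.2%; the median log2 was -0.33, against -0.01 over all genes. Against dendritic-cell-like barcodes 46 were lower (30.7% of all genes) and 12 higher (28.1%), with a median of -0.36, against -0.04. Against NK-cell-like barcodes 36 were lower (22.5%) and 15 higher (24.6%), with a median of -0.34, against 0.07; without replicate 2 the split was 19 lower and 17 higher (median -0.11, against 0.27), and without replicate 3 it was 20 and 14. In each of these 3 contrasts the members' share of lower calls was above that of all genes, and their share of higher calls was below it. Against plasmacytoid barcodes 30 were lower (22.0%) and 18 higher (23.4%), with a median of -0.06, against 0.06. That majority was not stable: it was 18 lower and 16 higher without replicate 1, 14 and 20 without replicate 2, 16 and 19 without replicate 3, and 23 and 25 with the highest doublet scores left out. Against epithelial-like barcodes 51 were lower (37.0%) and 14 higher (34.1%), with a median of -0.58, against -0.06, and the higher count was 9 without replicate 3. With library totals the splits became 51 lower and 6 higher for NK cells, 49 and 7 for plasmacytoid cells and 61 and 5 for epithelial cells; the median of all genes then moved to -0.14, -0.32 and -0.38. Under that scaling the sign turned for Atp5j, Atp5l, Ndufa2, Ndufa3 and Ndufv3 against plasmacytoid cells and for Ndufb9 against epithelial cells.

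The lowest named members against T cells were Ndufa4 (log2 -1.67), Cox7c (-1.65), Atp5g3 (-1.61), Uqcrh, the hinge protein of complex III (-1.54), and Cox7a2l, which links complexes III and IV (-1.45). Uqcrh had 240, 251 and 253 CPM in neutrophil-like barcodes, against 826, 873 and 801 CPM in T-cell-like barcodes. Cox7a2l had 157, 180 and 168 CPM in neutrophil-like barcodes, against 510, 537 and 544 CPM in T-cell-like and 687, 606 and 608 CPM in dendritic-cell-like barcodes. Both genes lay lower in all neutrophil-like libraries. Against dendritic cells the lowest were Cox7a2l (-1.77), Atp5g3 (-1.68), Ndufc2 (-1.67), Cox7c (-1.60) and Ndufa9 (-1.58), and against NK cells Ndufa4 (-1.87), Atp5g2 (-1.64), Cox7c (-1.60), Uqcrh (-1.52) and Cox7a2l (-1.52). Against plasmacytoid cells Cox7c (-1.33), Ndufa9 (-1.26), Atp5g2 (-1.21), Atp5g3 (-1.08) and Cox7a2l (-1.07) were lowest.

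On the higher side, Ndufa7, Sdhaf2, Ndufb9, Cox6a1 and Ndufaf3 led against T cells, at log2 0.88, 0.75, 0.74, 0.68 and 0.68. Ndufb9, a membrane-arm subunit of complex I, had 400, 398 and 377 CPM in neutrophil-like barcodes, against 296, 270 and 249 CPM in T-cell-like and 336, 308 and 302 CPM in monocyte/macrophage-like barcodes. Its neutrophil-like libraries lay above both other classes. Ndufb9, Cox7a2, Ndufa7, Ndufaf3 and Sdhaf2 led against dendritic cells (log2 0.77, 0.72, 0.71, 0.68 and 0.65), and Ndufaf3, Ndufb9, Ndufa7, Cox6a1 and Uqcrq against NK cells (1.42, 0.88, 0.80, 0.75 and 0.65). Cox6b1, Ndufb9, Cox6a1, Cox8a and Ndufa7 led against plasmacytoid cells (1.10, 1.05, 0.96, 0.87 and 0.87). Against epithelial cells Ndufaf3, Sdhaf2, Ndufv3, Sdhb and Ndufs7 were highest (1.65, 1.42, 1.17, 0.97 and 0.61), and Ndufa5, Ndufa4, Cox7c, Atp5g3 and Ndufc2 lowest (-5.53, -2.57, -2.34, -2.25 and -2.08).

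Isoforms known from particular tissues were rare among the members. Cox6a2, which the rule leaves out, was the first of the leading genes of the plasmacytoid-dendritic-cell-like cluster. Cox4i2, the lung and oxygen-responsive partner of Cox4i1, had 5 UMIs in the neutrophil-like class and 214 in the monocyte/macrophage-like class, with 4, 1, 1, 0 and 3 UMIs in dendritic, plasmacytoid, T, NK and epithelial-like barcodes. Ndufa4l2, known to replace Ndufa4 under low oxygen, had 1 UMI in neutrophil-like, 11 in monocyte/macrophage-like and 11 in epithelial-like barcodes and 0 elsewhere. These 2 genes were near the limit of detection in neutrophil-like barcodes, at a depth where 3 UMIs make 0.472 CPM. Cox6b2, the testis isoform, had 0.642, 0.958 and 0.368 CPM in the neutrophil-like class, against 10.3, 9.73 and 11.2 CPM in the monocyte/macrophage-like and 12.5, 16.6 and 16.6 CPM in the dendritic-cell-like class. Cox7a1, the heart and muscle isoform, had 12.2, 5.27 and 7.0 CPM in neutrophil-like and 22.8, 20.1 and 22.7 CPM in monocyte/macrophage-like barcodes. It had 0 UMIs in plasmacytoid barcodes, where 3 UMIs make 3.83 CPM, so the neutrophil-like level over the 3 libraries together was at least 2.01-fold higher. Cox6b2 and Cox7a1 were called lower against the monocyte/macrophage-like class (log2 -3.70 and -1.26), at levels too low for the rule by which genes are named.

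Genes of neighbouring pathways were counted in the neutrophil-like against monocyte/macrophage-like contrast for comparison, where 36.4% of all genes were lower and 29.8% higher. All 18 glycolysis genes were higher at a median log2 of 1.52, among them the glucose transporters Slc2a3 (3.45) and Slc2a1 (2.54) and the hexokinase Hk3 (2.46). Glycolysis genes had not been left out of the clustering that made the classes. All 6 tested genes of a list of hypoxia-responsive regulators of respiration were higher, among them the mitophagy receptors Bnip3 (2.64) and Bnip3l (2.25), Higd1a (1.92) and the pyruvate dehydrogenase kinase Pdk1 (1.70). Of 18 genes of pyruvate dehydrogenase and the citrate cycle 11 were lower, including Suclg2 (-2.13), Idh3a (-1.94) and Fh1 (-1.77), and the malate dehydrogenase Mdh2 was the 1 higher (1.52). Import and inner-membrane genes were mostly lower, 17 of 26 with 5 higher, with the ADP/ATP carriers Slc25a4 at -3.96 and Slc25a5 at -1.74, and Tomm6 of the outer-membrane import pore higher at 1.34.

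Genes that make or regulate mitochondria did not follow a single direction. Of 10 tested biogenesis regulators 6 were higher, including Gabpb1 (1.54), a subunit of NRF2, and Yy1 (1.29), while Tfam, which packages and transcribes mitochondrial DNA, was lower at -1.10 and Myc at -4.55. Mitochondrial ribosomal proteins were lower in 33 and higher in 14 of 75, with a median of -0.22. Cytosolic ribosomal proteins were lower in 81 of 89, with a median of -1.11. Of 8 coenzyme Q synthesis genes 2 were higher and 1 lower. Of 32 genes listed as further respiratory chain genes outside the rule 9 were higher and 6 lower. The ends were the copper chaperone Cox17 (2.08) and Tmem256 (-4.31), a listed gene whose role in the chain was not examined here. Markers of other classes were present in the neutrophil-like sums at 2.51% (macrophage), 1.19% (T cell) and 2.74% (epithelial) of the level in their own class; their part in the results was not tested.

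Within the neutrophil-like class the states spanned a wider range of member levels than the leukocyte classes did. Sub-clustering gave 5 states of neutrophil-like barcodes and a group of 25 with T-cell genes, which was left out. The 95 genes, the mt- genes and the listed mitochondrial genes took no part in the clustering. Other genes of the organelle did: Etfb, Mrpl42 and Dnajc19 were among the 10 leading genes of state 2. Glycolysis genes were not left out of it, and Gpi1, of that list, was among the 10 leading genes of state 4. The states are therefore described per library with no test. State 2 (2288 barcodes, with Ltc4s and Siglecf among its leading genes) had 37598, 35422 and 33769 CPM of the 95 genes, against 9506, 10207 and 9336 CPM in state 1 (1631 barcodes, led by Cxcl3, Ccdc126 and Rragd). State 3, with blood-type and interferon markers, had 13794, 14673 and 14310 CPM, state 0 (led by Gm12589, Aldh2 and Plau) 17994, 18298 and 18651 CPM, and state 4 (132 barcodes, led by Hspa1a, Mgarp and Mt1) 23517, 18140 and 20765 CPM. State 2 was highest and state 1 lowest in every library, with no overlap between them.

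The mt- genes did not share this order. They summed to 7999, 8163 and 8267 CPM in state 2, against 9195, 7976 and 9111 CPM in state 1, and the libraries of the states overlapped. The ratio of state 2 to state 1 was 3.68 ± 0.25 for the nuclear genes and 0.934 ± 0.080 for the mt- genes (SD of 3 libraries). Nuclear UMIs per mt- UMI were 4.37 ± 0.31 in state 2, 3.02 in state 4, 2.39 in state 0, 1.66 in state 3 and 1.11 ± 0.15 in state 1. State 2 had a nuclear sum 1.31 ± 0.058 times that of the monocyte/macrophage-like class and 0.929 ± 0.052 times that of the epithelial-like class, while its mt- sum was 0.303 ± 0.017 times the monocyte/macrophage-like one. State 1 stood at 0.356 ± 0.019 of the monocyte/macrophage-like nuclear sum. The low class mean of neutrophil-like barcodes thus covered a state above and states below the other leukocytes.

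**Figure D3:**
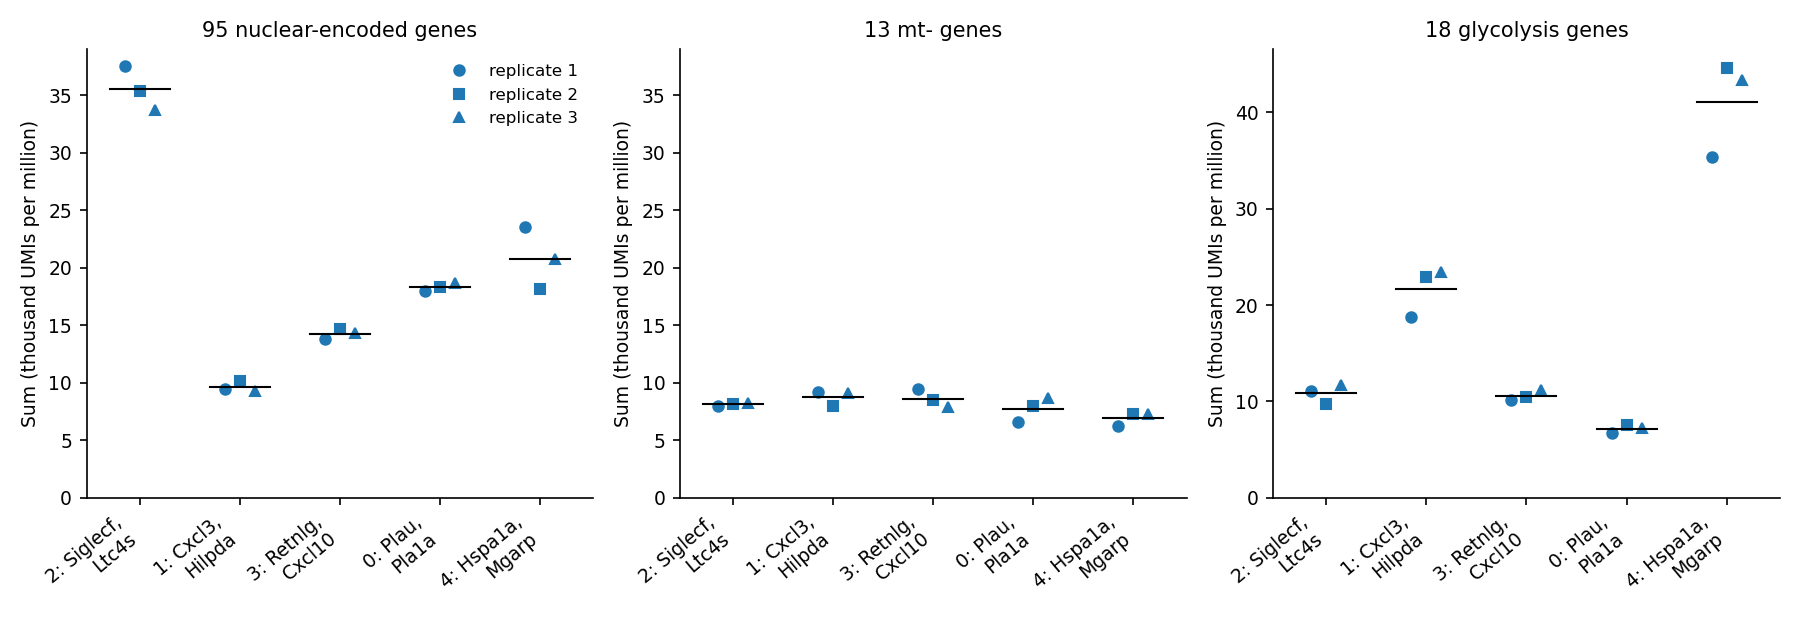
CPM of the 95 nuclear genes, of the 13 mt- genes and of 18 glycolysis genes in neutrophil states 2, 1, 3, 0 and 4; points are the 3 libraries and lines their means. State 2 is highest for the nuclear genes, the mt- genes lie close together in all states, and state 4 is highest for glycolysis. Glycolysis genes were not left out of the clustering that made the states.

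Nearly every member took part. Of 86 members with at least 30 UMIs in both states together, 84 were higher in state 2 in every library than in any library of state 1, against 59.1% of all 6664 genes (14.8% were lower), and 2, Ndufs1 and Atp5sl, overlapped. The median difference was 1.91 on the scale of log2 (mean CPM + 10), against 0.65 over all genes, and 4.71% of all genes lay above the members' median. The mt- genes gave a median of 0.23, with 5 of 12 higher and mt-Co1 (-0.74) and mt-Co3 (-0.22) lower. Ndufa11, an accessory subunit of the complex I membrane arm, had 314, 265 and 196 CPM in state 2, against 19.1, 15.2 and 18.9 CPM in state 1, the widest gap (3.27). Ndufb5, another membrane-arm subunit, had 247, 279 and 245 CPM against 23.9, 37.0 and 16.5 CPM (2.90). Both genes were separated by many times the spread of the libraries.

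All 3 c-ring genes were higher in state 2 than in state 1. Atp5g1 had 497, 510 and 463 CPM in state 2, against 65.4, 58.9 and 48.4 CPM in state 1, Atp5g2 432, 360 and 387 CPM against 71.8, 79.1 and 65.0 CPM, and Atp5g3 143, 119 and 140 CPM against 19.1, 21.9 and 28.3 CPM. In state 2 the libraries of Atp5g1 overlapped the monocyte/macrophage-like ones given above, and those of Atp5g2 and Atp5g3 lay below them. The complex II subunits differed least, with a summed ratio of 2.57 ± 0.16 over the 4 subunits, against 4.07 ± 0.31 for the subunits of complex I, 3.33 ± 0.30 for complex III, 3.31 ± 0.17 for complex IV and 3.99 ± 0.32 for complex V (SD of 3 libraries). Sdha had 46.9, 43.8 and 51.4 CPM in state 2, against 30.3, 21.9 and 28.3 CPM in state 1, and Sdhb 267, 197 and 241 CPM against 68.6, 60.6 and 70.9 CPM. Sdha therefore differed by less than Sdhb, its partner in electron transfer (0.64 and 1.68 on the scale of log2 (mean CPM + 10)). The libraries of the 2 states did not overlap for either gene. Cox8a had 2330, 2137 and 1990 CPM against 1067, 966 and 980 CPM, and Cox7c 559, 539 and 483 CPM against 105, 103 and 57.9 CPM.

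**Figure D4:**
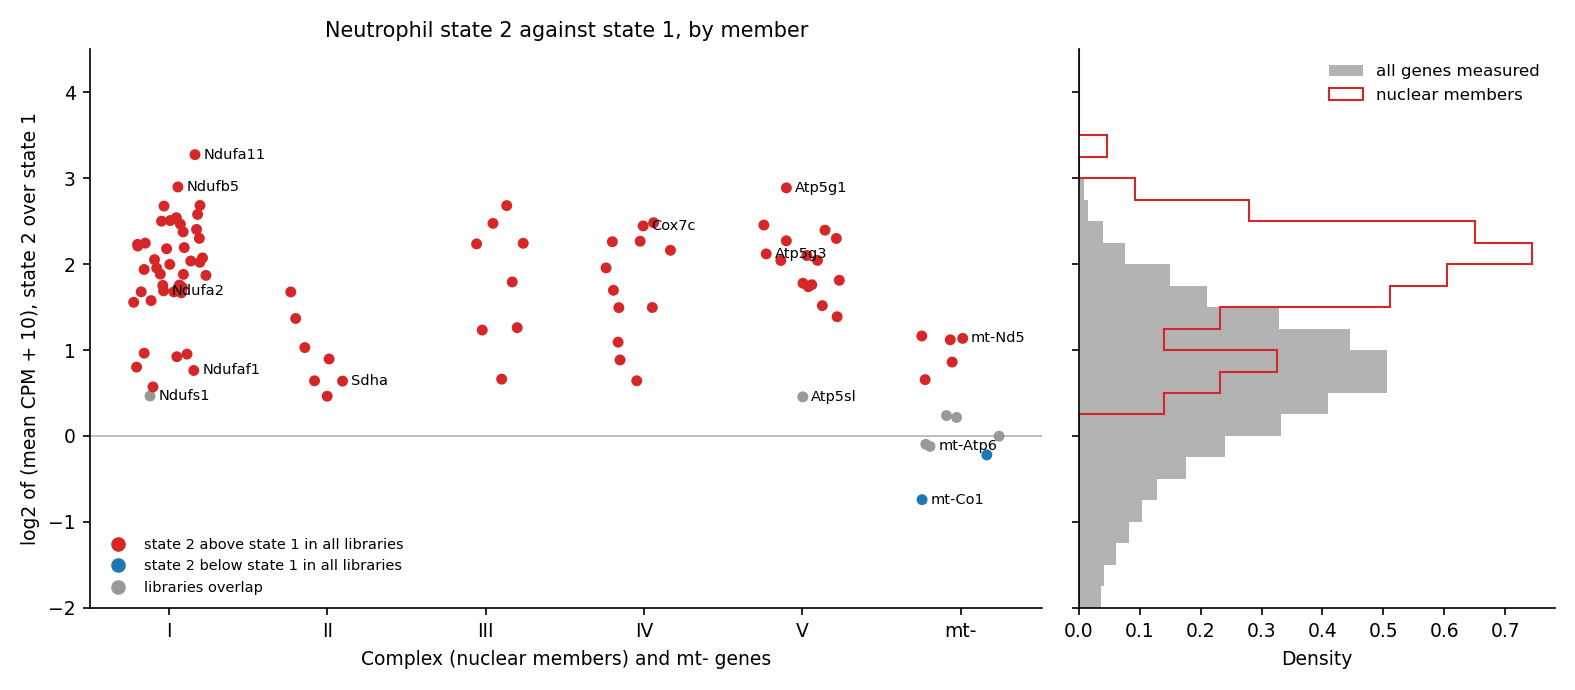
Difference in log2 (mean CPM + 10) between state 2 and state 1 for each measured member by complex and for the mt- genes (left), beside histograms of the same difference over all genes and over the members (right). The median of the members is 1.91, that of all genes 0.65 and that of the mt- genes 0.23.

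Set against the other states, 81 of 85 members were higher in state 2 than in state 3 (47.7% of all genes), 65 of 85 than in state 0 (28.5%) and 52 of 82 than in state 4 (29.9%), with Uqcrfs1 and Cox7a2l lower than in state 4 (9.84% of all genes lower). Set against the monocyte/macrophage-like class, 45 of 91 members were higher in state 2 in all libraries (31.6% of all genes), 18 lower (29.5%) and 28 overlapping, and 11 of 13 mt- genes were lower. Against T-cell-like barcodes 51 of 88 were higher (35.9% of all genes) and 14 lower (26.7%), and against epithelial-like barcodes 32 of 88 were higher (35.4%) and 31 lower (32.8%), with all 13 mt- genes lower. Other mitochondrial lists had ratios of state 2 to state 1 of 4.27 (citrate cycle), 3.41 (mitochondrial ribosomal proteins), 2.51 (import), 2.50 (coenzyme Q), 1.56 (biogenesis regulators) and 1.51 (further respiratory chain genes outside the rule), and cytosolic ribosomal proteins had 2.26. Glycolysis genes went the other way at 0.506, with 11085, 9743 and 11753 CPM in state 2, against 18756, 22883 and 23438 CPM in state 1. These genes were not left out of the clustering that made the states, so their difference is no separate evidence. The hypoxia-responsive list, which was left out, stood at 0.299. The mitochondrial lists thus did not all share the direction or the size of the members' ratio: the hypoxia-responsive one, itself nuclear-encoded, was lower in state 2 in all 3 libraries.

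The gap between the states was also seen in UMIs per barcode and in barcodes grouped without clustering. A state 2 barcode held on average 27.8, 27.9 and 34.0 member UMIs, against 10.6, 12.2 and 13.8 in state 1, although its median total was lower (688, 724.5 and 963 UMIs against 1035.5, 998.5 and 1260 UMIs). It held 5.92, 6.42 and 8.32 mt- UMIs, against 10.3, 9.51 and 13.5 in state 1. The barcodes of state 2 were thus shallower, richer in nuclear members and on average poorer in mt- UMIs. Their median share of mt- UMIs per barcode was nevertheless higher, at 0.612%, against 0.487% in state 1 over the 3 libraries together. The 20 most abundant neutrophil-like genes took 19.5%, 20.2% and 18.6% of UMIs in state 2, against 33.8%, 32.4% and 33.0% in state 1; with these genes taken out of the totals the ratio was 3.06. With barcodes thinned to 600 UMIs, those with a Siglecf or Ltc4s UMI and no Cxcl3, Hilpda or Hcar2 UMI had 38827, 36019 and 34734 CPM of the members, against 12534, 12009 and 12340 CPM in the reverse group, a ratio of 2.97. Siglecf and Ltc4s are among the 10 leading genes of state 2, and Cxcl3 and Hilpda among those of state 1. This grouping is therefore no separate evidence. The 192 barcodes with UMIs of both sets had a mean of 26043 CPM, and the 2235 with neither 24058 CPM. Epithelial markers stood at 4.45% of their own class level in state 2 and 1.56% in state 1, macrophage markers at 2.39% and 2.84%, and T-cell markers at 0.821% and 0.585%; their part in the result was not tested.

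Tumour-type and blood-type neutrophils were compared with a gate on marker genes, in which no member took part. Barcodes thinned to 600 UMIs were tumour-type when they held more UMIs of tumour-associated sets than of a blood set, and blood-type when fewer. The tumour-associated sets included Cxcl3, Hilpda, Hcar2, Siglecf and Ltc4s. The blood set included Retnlg and Mmp8, but also Prok2, among the 10 leading genes of state 1, and Mmp9. Mmp9 was among the 10 leading genes of a neutrophil-like cluster led by Siglecf. UMIs of Prok2 and Mmp9 counted towards blood-type, and their part was not tested. The members summed to 21282, 20921 and 21444 CPM in tumour-type barcodes, against 13784, 12125 and 15742 CPM in blood-type barcodes, with no overlap. The gate pooled the Cxcl3 and Siglecf sets, whose barcodes differed. Among all neutrophil-like barcodes at this depth, those with Cxcl3, Hilpda or Hcar2 and no Siglecf or Ltc4s UMI had 12534, 12009 and 12340 CPM. These lay below the blood-type sum in each library. The reverse group had 38827, 36019 and 34734 CPM. The 14 neutrophil markers took 5.49% of UMIs in tumour-type and 20.3% in blood-type barcodes, and their part was not tested. The mt- genes had 8438, 7887 and 8000 CPM in tumour-type and 4640, 6772 and 7280 CPM in blood-type barcodes, also with no overlap. In the edgeR fit 10 of 77 members were higher, against 7.31% of all 3831 genes, and 0 were lower, against 10.0%. At an unadjusted p under 0.05, and with DESeq2, 0 were lower too. The median log2 was 0.26, against 0.11 over all genes, and it was 0.23 for the mt- genes, of which 1 of 12 was called, lower. Without thinning, 11 of 80 members were higher and 1 was lower, against 390 and 613 of all 5477 genes.

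The 10 included Ndufab1, the mitochondrial acyl carrier protein that is also a complex I subunit, with 108, 76.7 and 93.5 CPM in tumour-type and 22.5, 8.82 and 10.8 CPM in blood-type barcodes (log2 2.48, SE 0.659, adjusted p = 0.0019). Ndufs7 had 251, 206 and 227 CPM against 67.6, 44.1 and 108 CPM (log2 1.24), Atp5o, a stalk subunit of complex V, 169, 161 and 182 CPM against 45.0, 35.3 and 86.0 CPM (log2 1.22), and Uqcrb 175, 134 and 171 CPM against 67.6, 44.1 and 53.8 CPM (log2 1.19). These 4 did not overlap between the groups. Ndufc1 (1.10), Atp5g1 (0.97), Cox5a (0.84), Cox7b (0.73), Ndufv3 (0.64) and Uqcrq (0.61) completed the list. The blood-type groups held 74, 189 and 155 barcodes, and the count was not stable: it was 37 with library totals, 17 with no filter on low counts, 4 with thinning to 900 UMIs, 1 with DESeq2, 0 without replicate 2, 4 without replicate 3 and 11 without replicate 1.

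The epithelial-like class had the highest share of nuclear respiratory chain UMIs. Against the mean of the leukocyte classes, 42 of 88 members were higher, against 33.2% of all genes, and 13 lower, against 28.4%, with 8 lower without replicate 1 and 50 higher and 8 lower with DESeq2; the median log2 was 0.27, against 0.01 over all genes, and 10 of 13 mt- genes were higher. By complex, 17 of 37 subunits of complex I, 5 of 8 of complex III, 8 of 13 of complex IV and 9 of 15 of complex V were higher, but 1 of 4 of complex II, where 2 were lower. Sdhb had 93.0, 82.7 and 95.8 CPM in epithelial-like barcodes, against 227, 209 and 234 CPM in monocyte/macrophage-like and 138, 138 and 147 CPM in neutrophil-like barcodes (log2 -1.01 against the leukocyte mean, adjusted p = 1.6e-09). The epithelial-like libraries were the lowest of these 3 classes for Sdhb and the highest for Sdhc, with 75.6, 87.0 and 82.4 CPM, except that Sdhc in the third monocyte/macrophage-like library reached 79.5 CPM.

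Ndufa4 had 1100, 1098 and 1087 CPM in epithelial-like barcodes, against 373, 365 and 421 CPM in monocyte/macrophage-like and 141, 144 and 158 CPM in neutrophil-like barcodes (log2 1.43 against the leukocyte mean). Ndufb2, an accessory membrane-arm subunit, had 384, 424 and 344 CPM in epithelial-like barcodes, against 163, 171 and 176 CPM in monocyte/macrophage-like barcodes (log2 1.35). Neither gene overlapped with the leukocyte classes named. Ndufaf2, a complex I assembly factor (1.34), and Ndufab1 (1.05) followed, and at the low end Sdhb was followed by Ndufaf3 (-0.94), Ndufv3 (-0.92), Sdhaf2 (-0.88) and Cox7a2l (-0.68). Thinned to 600 UMIs per barcode, 26 members were called in place of 55, of 80 tested. Neutrophil markers stood at 1.67% of their own class level in the epithelial-like sums and macrophage markers at 2.0%, with 1291 CPM of the macrophage markers in replicate 1, against 440 and 157 CPM in replicates 2 and 3; their part in the result was not tested.

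Ndufa5 stood apart from every other member. It had 4037, 3876 and 3873 CPM in epithelial-like barcodes, against 142, 132 and 159 CPM in monocyte/macrophage-like, 163, 138 and 161 CPM in T-cell-like and 86.1, 55.1 and 65.2 CPM in neutrophil-like barcodes. Dendritic and NK classes lay between 108 and 161 CPM, and the plasmacytoid class at 82.6, 113 and 208 CPM. Each epithelial-like library lay far above every library of the leukocyte classes (log2 4.89 against the leukocyte mean, SE 0.0805, adjusted p = 1.1e-30). Without Ndufa5 the epithelial-like sum was 33971, 35612 and 33601 CPM, which is 1.27 ± 0.049 times the monocyte/macrophage-like sum, against 1.41 ± 0.048 with it. The single gene thus made up 4037 of 38008 CPM in replicate 1.

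Genes that neighbour Ndufa5 were high in the epithelial-like class too. On chromosome 6 (GRCm38, GENCODE M21), 21 consecutive tested genes from Gm15473, starting at 17058806, to Wasl, ending at 24665009, span 7.61 Mb with Ndufa5 near the far end. Of these, 20 were called higher with a log2 fold change above 1, as were 20.7% of all genes. The lowest of the 20 was at 2.48, and the exception was Gm20186 at 0.49. The run was chosen after its values were seen. It includes Met, a receptor tyrosine kinase, with 903, 859 and 1155 CPM in epithelial-like barcodes, against 4.26, 3.24 and 7.68 CPM in monocyte/macrophage-like barcodes (9.37), and Cftr, a chloride channel (9.59). Other genes of the run were also well detected in leukocytes. Capza2, which caps actin filaments, had 7288, 6079 and 6553 CPM in epithelial-like barcodes, against 494, 449 and 480 CPM in monocyte/macrophage-like barcodes (4.30), and Lsm8, a splicing factor subunit, 6671, 6118 and 6762 CPM against 87.6, 88.2 and 92.2 CPM (5.96). Both were separated in every library. The genes on either side, Mdfic (-1.08) and Pot1a (0.80), did not share the level. Farther out, within 20 Mb of Ndufa5, 2 of 17 genes before the run and 11 of 72 after it also lay at 2.48 or above, among them Cald1 (8.69) and Tcaf1 (8.14). Ndufa4, the second highest member, lies 12.6 Mb from Ndufa5 outside the run. DNA was not analysed here, and the cause of the run was not tested.

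**Figure D5:**
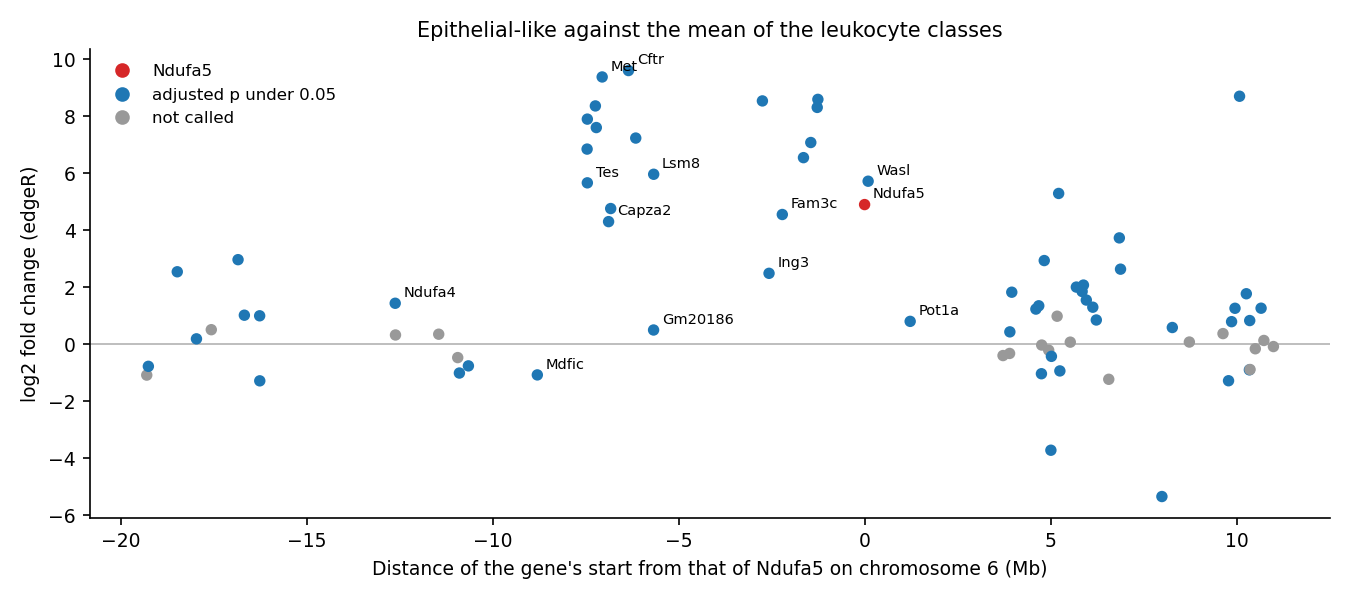
Log2 fold change in the epithelial-like class against the mean of the leukocyte classes, for tested genes by distance in Mb from the start of Ndufa5. A run of 21 genes that ends near Ndufa5 lies at 2.48 or above with 1 exception. The next gene at each end lies lower, and single genes farther out reach the level of the run.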

How the data were processed

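The authors deposited UMI counts per gene and barcode, as whole numbers without normalisation; Cell Ranger, Seurat and the mm10 build are named per the submitters' processing notes, with versions not given in the sources used here, and version 3.0.0 of an unnamed software stands in the matrix headers. Barcodes with under 200 genes (22) or over 10% mt- UMIs (107) and 2 called doublets were left out. Clustering used 2000 variable genes without the members, mt- genes and listed mitochondrial genes. Glycolysis and ribosomal protein genes were not left out. The clustering had 30 components, 15 neighbours and Leiden resolution 1 (0.5 for states), in scanpy 1.11.5 and Python 3.11.15. A cluster took a class name when at least 3 markers reached 10% of its barcodes and a 2-fold excess over the rest. One mixed T-cell and neutrophil cluster (121 barcodes) stayed unnamed, and 74 B-or-plasma-cell-like barcodes were too few to test.

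Sums of UMIs per class (or gate) and library were tested with edgeR 4.0.16 (limma 3.58.1, R 4.3.3; TMM, filterByExpr, library as block, since the sums of a block come from the same library). DESeq2 1.42.0 was an alternative. Promoter windows were read from RefSeq. Members and lists were chosen with earlier results of these data known. Named genes were the 10 highest and 10 lowest called members against monocyte/macrophage-like barcodes, 5 and 5 elsewhere, with the same direction in each library and a mean log2 CPM of at least 5, besides fixed core and isoform sets; members of the gate contrast and of the states were named after their values were seen. Some genes that this rule covers are not reported here. Limits from 3 UMIs cover counting error only.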

Additional observations from a re-analysis of the deposited data

How the results depend on the processing

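Each count of called members was recomputed under other scalings, tools, filters, clusterings and depths, and with each library left out. With each barcode thinned to 600 UMIs the members called were 26 for epithelial-like against leukocytes, 43 for neutrophil-like against epithelial-like and 20 against plasmacytoid barcodes, where fewer members and fewer UMIs were tested. The tumour-type against blood-type count of 10 became 37 with library totals, 17 with no filter on low counts, 4 with thinning to 900 UMIs and 1 with DESeq2, and ranged between 0 and 11 with each replicate left out; the stricter barcode filter left 7 blood-type barcodes in replicate 1 and was not run. Leaving out each library gave 54 to 59 against monocyte/macrophage-like barcodes, and 34 to 38 against NK cells, in place of 51, with 34 without replicate 3. Without the replicate block the counts were 62 against monocyte/macrophage-like barcodes, 56 against T cells and 8 for the gate. The ratio of state 2 to state 1 was 2.97 in gated barcodes, 3.06 without the most abundant genes and 3.54 to 3.79 with each library left out. Among 80 pairs of a named member and a contrast, 1099 of 1115 alternatives kept direction and call, 16 lost the call and 0 reversed. These pairs were picked for extreme fold changes among called members with the same direction in every library, which favours stability. Over all called members, library totals turned the sign of 5 of 48 against plasmacytoid cells. Against NK cells 9 of 51 lost the call. With DESeq2, 0 turned and 0 lost the call in either contrast. The cause of these shifts was not tested. Depth limits what could be seen: 3 UMIs make 3.83 CPM in the plasmacytoid class.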

Other observations

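Clusters within the classes also differed in the members. A cluster of T-cell-like barcodes with cell-cycle genes (led by Ccl1, Xcl1, Nrn1 and Stmn1 among others) had 33252, 30598 and 32190 CPM of the 95 genes, against 24857, 24479 and 24250 CPM in a cluster led by Ccl5, Gzmk and Gzmb. A macrophage-like cluster led by histone and mitotic genes such as Birc5 and Top2a had 32133, 29769 and 29328 CPM. The cluster of dendritic-cell-like barcodes led by Ccr7, Fscn1 and Ccl22 had 21663, 21672 and 19158 CPM, with 26357, 28930 and 23685 CPM of the mt- genes. In B-or-plasma-cell-like barcodes (74 in all, led by immunoglobulin genes) the members had 19061, 19943 and 18430 CPM and the mt- genes 25348, 30960 and 27401 CPM, so that a nuclear level as low as that of neutrophil-like barcodes stood beside a high mt- level. These clusters were described after their values were seen, and no test was made.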
